A study of Homo sapiens with 12 samples.

Results

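Genes of homologous recombination, the Fanconi anaemia pathway and mismatch repair were followed in 22Rv1 cells, an established human prostate carcinoma line, with and without a small molecule inhibitor of ONECUT2 (so named in the series title), a homeodomain transcription factor. The set was 44 gene symbols taken by name. Every probe set that the platform annotation tied to 1 of those symbols alone was used, and MRE11A was read as MRE11. This gave 86 probe sets for 38 genes, out of 54675 probe sets on the array and 19775 named genes. BRCA2, FANCA, FANCD2 and RBBP8 had no probe set named for them here, and ATRIP and PMS2 had only probe sets shared with another gene, so these 6 genes were not analysed here. The rule that picks the genes reads no measured value, but the set was drawn up with earlier results of these data known.

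Expression was read on 12 Affymetrix U133 Plus 2.0 arrays: 3 each of cells given the compound for 4 h, 6 h or 16 h, and 3 of vehicle-treated cells. The labels name no genetic change in any group. The labels give no treatment time for the vehicle cells, and a code element of unstated meaning is missing from the 16 h titles alone. The compound, the time in culture and anything else behind those titles therefore cannot be told apart in a comparison with 16 h. Whether replicates were separate cultures is not stated in the labels, so the p-values cover only the scatter among these arrays, and that scatter may be technical. The arrays measured whole cultures, in which fewer cells of a kind and less RNA per cell cannot be told apart.

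Homologous recombination repairs a double-strand break by cutting back the broken ends, loading a recombinase with the help of the BRCA proteins, and copying the intact sister chromatid. The Fanconi pathway unhooks crosslinks between the DNA strands, with ubiquitin attached to the pair formed by FANCI and FANCD2, and then hands the break to recombination. Mismatch repair removes the wrong base left after replication. Many of these genes are transcribed mostly in S and G2 phase. Prostate cancers that lose recombination genes such as BRCA2 are known for their sensitivity to PARP inhibitors.

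Values are log2 expression as the authors deposited it, from 1 array each. A gene was read from its brightest probe set, the one with the highest mean over the 12 arrays. It was tested if this mean reached 2.11, which is the median of all probe-set means. All 38 genes passed this filter. A gene is said to have risen, fallen or changed where limma gave an adjusted p below 0.05 after Benjamini-Hochberg adjustment over the 12635 genes tested.

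After 16 h with the inhibitor, 19 of the 38 repair genes fell and 4 rose relative to vehicle, and 15 did not pass the test. Among all tested genes, 42.8% changed at 16 h, with 26% rising and 16.8% falling. The median log2 change of the 38 genes was -0.25, with 30 lower and 8 higher, beside a median of 0.05 over all tested genes. The 3 arrays at 16 h did not overlap the 3 vehicle arrays in 25 repair genes, 21 lying below and 4 above, whereas 51.5% of all tested genes had no overlap. The falls were modest, between 1.16-fold and 1.81-fold, and 6 genes fell by at least 1.5-fold: BRIP1, UBE2T, XRCC3, RMI2, MSH6 and RAD54B. The 4 genes that rose were MRE11, RAD52, ATR and MUS81, by 1.19-fold to 1.49-fold. The split of calls depended on scaling. With median centring of each array 24 repair genes fell and 3 rose, and rises made up 44.5% of the calls among all genes, against 60.7% with the values as deposited.

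**Figure D1:**
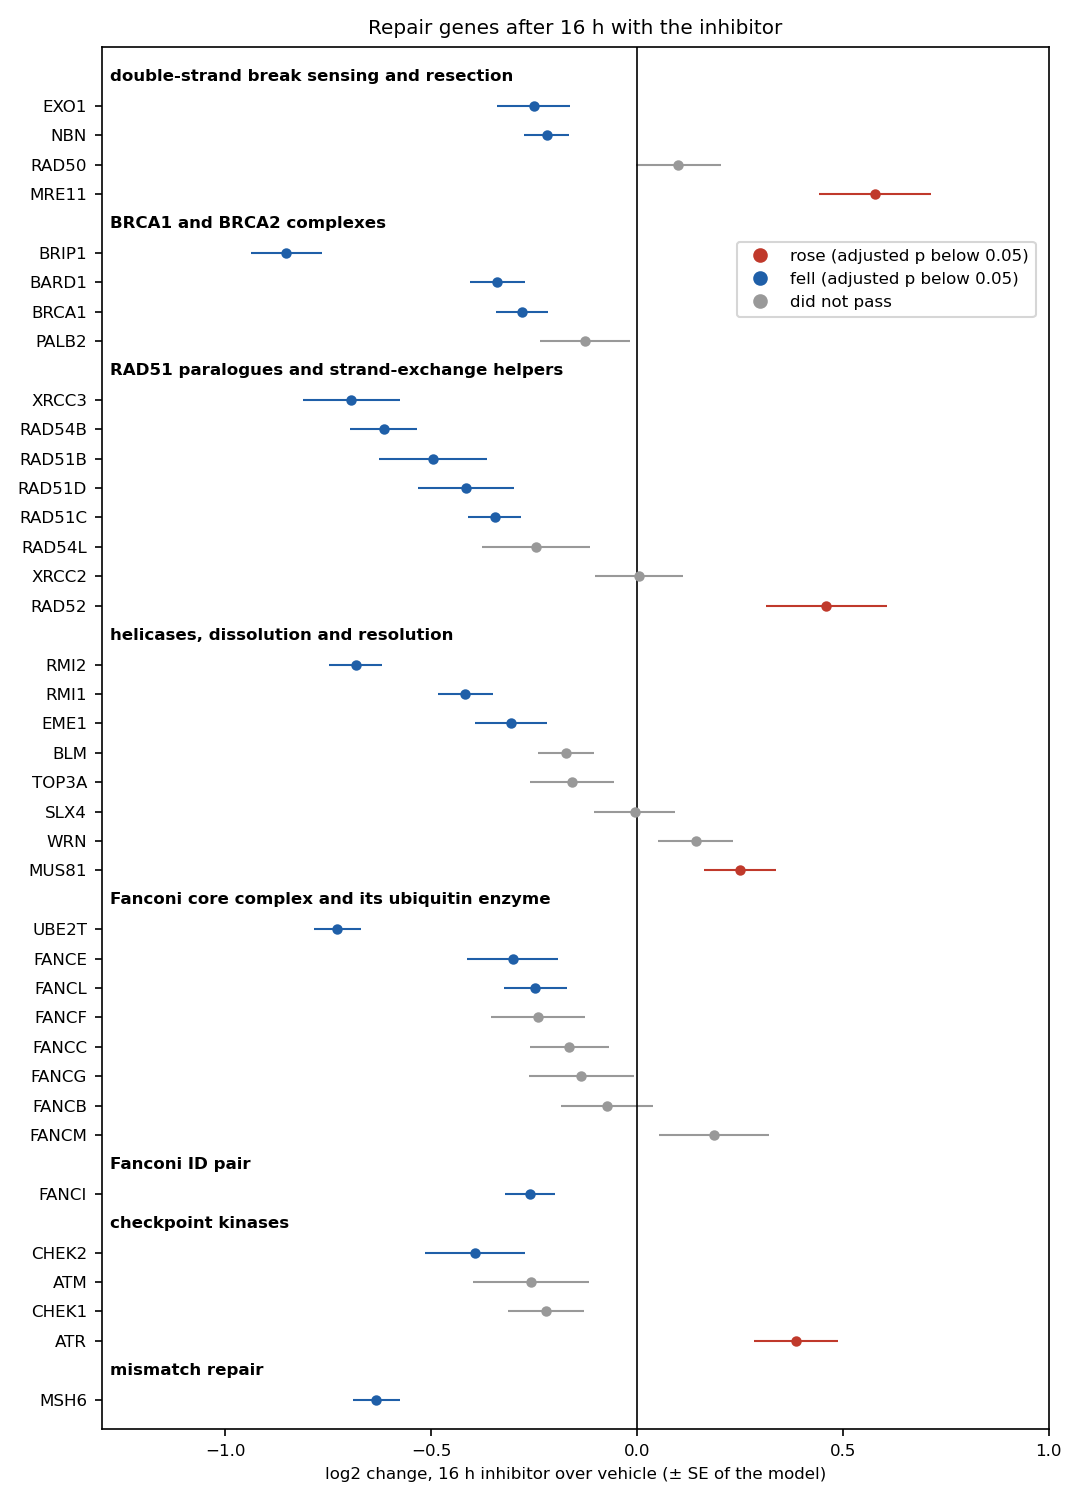
Log2 change at 16 h over vehicle for the 38 measured repair genes, grouped by role, with bars of 1 SE from the model (n = 3 arrays per group). Colours mark genes that rose, fell or did not pass the test, and 19 genes lie to the left as falls against 4 rises.

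At 4 h and 6 h none of the 38 genes changed relative to vehicle. Of all tested genes, 0.459% changed at 4 h and 0.0317% at 6 h. Among the repair genes, 3 at 4 h and 1 at 6 h had an unadjusted limma p below 0.05, and the lowest adjusted p was 0.206 at 4 h and 0.577 at 6 h. Log2 changes at 4 h ran from -0.37 for XRCC2 to 0.27 for BRIP1, and at 6 h from -0.23 for MRE11 to 0.20 for MUS81. In each of the 2 comparisons 7 genes had arrays that did not overlap vehicle, 4 above and 3 below, where 18.3% of all tested genes did so at 4 h and 14.4% at 6 h. Between 6 h and 4 h, where 0.095% of all genes changed, no repair gene did, 2 had an unadjusted p below 0.05, and the lowest adjusted p was 0.376.

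BRIP1, the helicase that binds BRCA1 and is also a Fanconi gene, had the largest fall. Its values were 7.76, 7.91 and 7.92 in vehicle cells, 8.15, 8.14 and 8.10 at 4 h, 7.87, 7.96 and 8.10 at 6 h, and 6.86, 7.16 and 7.02 at 16 h. The 3 arrays at 16 h lay below the other 9, while the 4 h and 6 h arrays lay at or just above vehicle. The log2 change at 16 h was -0.85 ± 0.09 (SE), a 1.81-fold fall (limma adjusted p = 1.38e-05). BRIP1 was also lower at 16 h than at 4 h, by 2.17-fold, and than at 6 h, by 1.95-fold.

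UBE2T, the ubiquitin-conjugating enzyme that works with the Fanconi core complex, was at 10.55, 10.51 and 10.54 in vehicle cells, 10.52, 10.48 and 10.52 at 4 h, 10.63, 10.64 and 10.62 at 6 h, and 9.77, 9.89 and 9.76 at 16 h. It was steady within a group and lower on each array at 16 h than on any other array. The log2 change was -0.73 ± 0.06 (SE), with the lowest adjusted p among the repair genes (1.79e-06).

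PMS2 was not measured, which left MSH6 as the gene of the set grouped under mismatch repair. MSH6 is the subunit of the mismatch recognition dimer that senses base mismatches. Its values were 8.73, 8.62 and 8.69 in vehicle cells, 8.60, 8.68 and 8.69 at 4 h, 8.65, 8.69 and 8.64 at 6 h, and 8.03, 8.09 and 8.02 at 16 h. Only the 16 h arrays stood apart, and the log2 change was -0.63 ± 0.06 (SE; limma adjusted p = 5.68e-06). The fall of MSH6 does not describe mismatch repair as a whole. Of mismatch genes outside the set, MSH3 (0.31, limma adjusted p = 0.0141) and PMS1 (0.23, 0.021) rose, and MLH3 (0.07) did not pass. XRCC3, which forms a dimer with RAD51C that works during strand exchange, gave a dim signal of 2.09, 2.30 and 2.52 at 16 h, against 3.20, 2.84 and 2.94 in vehicle cells. This was a change of -0.69 ± 0.12 (SE; adjusted p = 0.00063), and at 16 h the signal came close to that of bacterial control probes with no spiked target. The top value among these unspiked controls averaged 1.94 at 16 h and 2.14 in vehicle cells.

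BRIP1, UBE2T, XRCC3 and MSH6 had the largest changes among the called genes whose promoters could be printed here. Their promoters are shown, because S-phase genes are often controlled through E2F and CCAAT elements. Each runs from 250 bases before the transcription start to 50 after it (RefSeq, GRCh38.p14), 5′ to 3′ on the gene's own strand. Capitals mark the letters CCAAT and an E2F-like word (TTTGGCGC, TTTCGCGC, TTTCCCGC or TTTGCCGC) on either strand. BRIP1 lies at chr17:61863479-61863778 on the minus strand, UBE2T at chr1:202341887-202342186 on the minus strand, XRCC3 at chr14:103715402-103715701 on the minus strand, and MSH6 at chr2:47782895-47783194 on the plus strand, the first of 4 starts listed for it.
BRIP1: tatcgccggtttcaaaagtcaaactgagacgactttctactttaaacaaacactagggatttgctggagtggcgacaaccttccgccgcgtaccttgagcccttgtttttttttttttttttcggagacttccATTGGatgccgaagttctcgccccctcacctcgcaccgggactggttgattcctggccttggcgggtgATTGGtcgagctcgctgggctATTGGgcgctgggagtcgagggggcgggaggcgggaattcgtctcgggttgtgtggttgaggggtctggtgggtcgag
UBE2T: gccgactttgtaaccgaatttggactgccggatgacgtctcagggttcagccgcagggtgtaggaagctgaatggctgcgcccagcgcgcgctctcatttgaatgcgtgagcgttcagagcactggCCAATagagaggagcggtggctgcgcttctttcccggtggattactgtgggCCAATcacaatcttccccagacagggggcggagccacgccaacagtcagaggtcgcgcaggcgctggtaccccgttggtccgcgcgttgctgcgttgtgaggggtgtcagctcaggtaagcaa
XRCC3: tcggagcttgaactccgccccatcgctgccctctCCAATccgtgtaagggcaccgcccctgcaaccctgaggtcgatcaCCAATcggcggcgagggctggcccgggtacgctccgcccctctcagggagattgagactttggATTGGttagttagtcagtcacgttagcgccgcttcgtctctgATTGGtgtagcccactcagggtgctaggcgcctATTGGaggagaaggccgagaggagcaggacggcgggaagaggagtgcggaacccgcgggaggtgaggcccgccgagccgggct
MSH6: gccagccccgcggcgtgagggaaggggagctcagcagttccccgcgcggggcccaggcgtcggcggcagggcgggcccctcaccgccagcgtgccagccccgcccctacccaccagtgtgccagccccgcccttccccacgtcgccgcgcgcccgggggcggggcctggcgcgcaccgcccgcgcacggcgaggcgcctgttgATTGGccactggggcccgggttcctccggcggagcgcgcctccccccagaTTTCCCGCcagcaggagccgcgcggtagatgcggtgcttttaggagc

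BRIP1 had 3 CCAAT words in this window, UBE2T 2 and XRCC3 5, and none of those 3 windows held an E2F-like word. MSH6 had 1 of each, with the E2F-like word TTTCCCGC beginning at base 3 after the start. Of the 38 genes, 33 had a promoter in the table, and a gene counted as holding a word where any of its listed windows did. The E2F-like word was in 3 of 15 genes that fell (20%), namely EXO1, MSH6 and RMI1, in 0 of 4 that rose and in 2 of 14 that did not pass the test (14.3%), beside 3.99% of 27305 genes with a promoter of this length. CCAAT was in 7 of 15 that fell, 2 of 4 that rose and 7 of 14 others, beside 39.7% of all genes. The cell cycle homology word, TTTGAA or TTCGAA on either strand, was in 2 of 15, 0 of 4 and 2 of 14 in the same order, beside 19.5% of all genes. These are matches of the listed letters only, other forms of an E2F site were not searched, and binding was not measured.

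**Figure D2:**
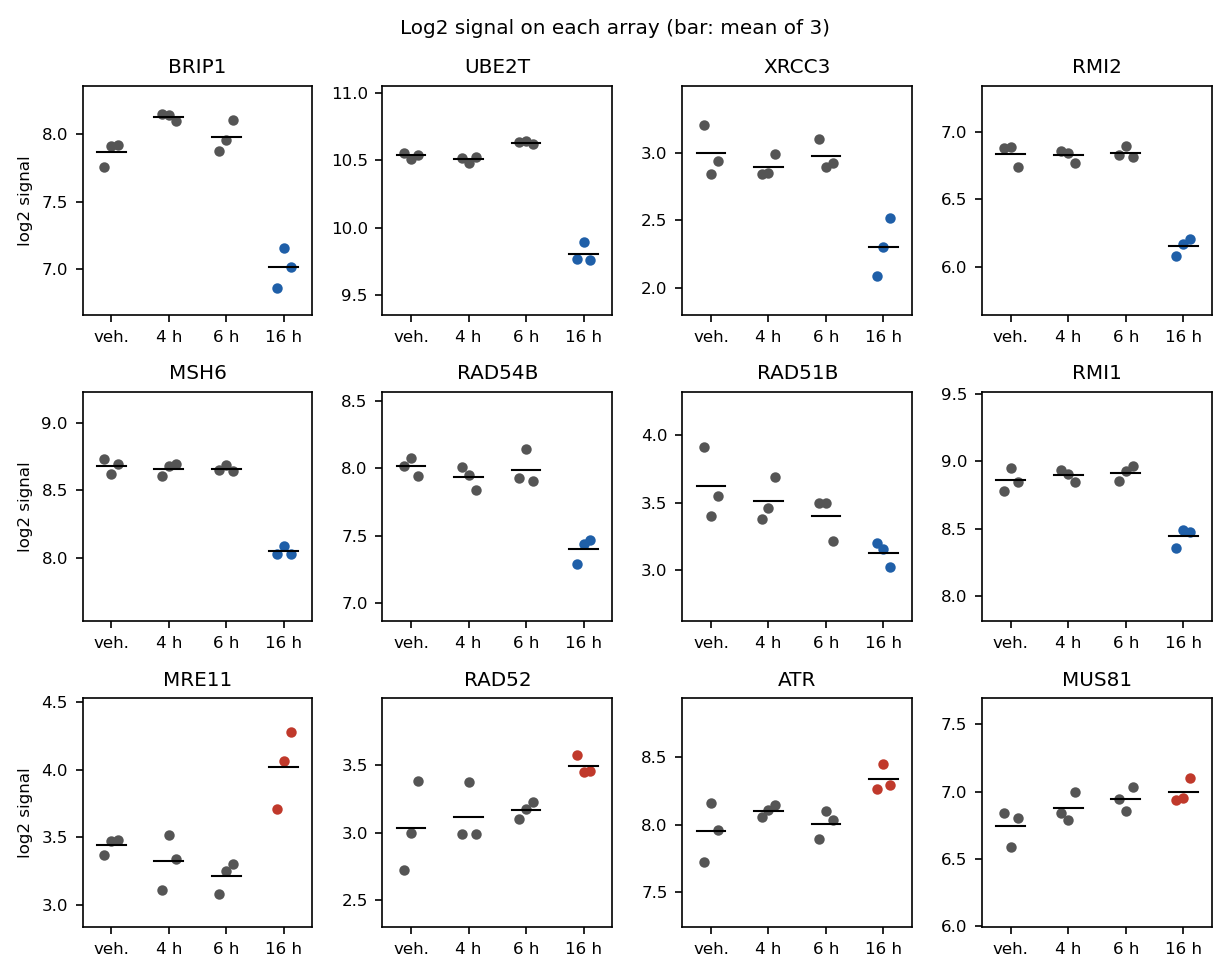
Deposited log2 expression on each of the 12 arrays for the repair genes with the largest changes, with vehicle (veh.), 4 h, 6 h and 16 h from left to right (points are single arrays, bars are group means). The 3 arrays at 16 h lie below the other 9 for BRIP1 and UBE2T and above the other 9 for MRE11.

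Of 4 measured genes of break sensing and end resection, MRE11 rose, NBN and EXO1 fell on their brightest probe sets, and RAD50 did not pass the test. MRE11, the nuclease that opens resection, was at 3.37, 3.47 and 3.47 in vehicle cells, 3.11, 3.51 and 3.34 at 4 h, 3.08, 3.25 and 3.30 at 6 h, and 3.71, 4.06 and 4.28 at 16 h. The 16 h values varied by 0.29 (SD, n = 3) yet all lay above the other groups, and the log2 change over vehicle was 0.58 ± 0.14 (SE; limma adjusted p = 0.0048). With the mean of its probe sets in place of the brightest, the change was 0.17 and no longer passed (adjusted p = 0.108). The other MRE11 probe sets averaged 1.99 and 1.93, below the filter, so that mean draws on signals near the unspiked controls. NBN, which brings ATM to the break, was at 8.99, 9.03 and 8.93 at 16 h, against 9.22, 9.23 and 9.17 in vehicle cells. Its change of -0.22 was the smallest that passed among the falls (adjusted p = 0.00621), and it holds for the brightest probe set alone, since another probe set of NBN rose by 0.60 (adjusted p = 0.000451). EXO1, an exonuclease of long-range resection and mismatch repair, was at 6.65, 6.90 and 6.93 at 16 h, against 6.97, 7.09 and 7.17 in vehicle cells (-0.25, adjusted p = 0.0387). EXO1 lost its call without vehicle replicate 2 (adjusted p = 0.0897), vehicle replicate 3 (0.127), 16 h replicate 1 (0.143), 4 h replicate 2 or 3 (0.0503 and 0.0515) or 6 h replicate 2 (0.0504), with no filter (0.0611) and with only the 2 compared groups in the fit (0.0857). RAD50, the ATPase that tethers the ends, was at 6.54, 6.79 and 6.97 at 16 h and 6.60, 6.73 and 6.68 in vehicle cells, with overlapping groups. The sign of RAD50 turned with the choice of probe set: with the mean of its probe sets the change was -0.25 and passed (adjusted p = 0.00305).

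In the BRCA complexes, 3 of 4 measured genes fell. Beside BRIP1 these were BRCA1 and BARD1, which together form a ubiquitin ligase. BRCA1 was at 7.99, 8.12 and 8.17 at 16 h, against 8.40, 8.38 and 8.35 in vehicle cells (-0.28 ± 0.06 SE, limma adjusted p = 0.00364). BARD1 was at 7.01, 6.94 and 7.001 at 16 h, against 7.24, 7.43 and 7.30 in vehicle cells (-0.34 ± 0.07 SE, adjusted p = 0.00153). In both genes the groups were apart on all arrays, and both were also lower at 16 h than at 4 h and 6 h. PALB2, which bridges BRCA1 and BRCA2, changed by -0.13 with an adjusted p of 0.376 and overlapping arrays.

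Among 8 measured recombinase paralogues and strand-exchange helpers, 5 fell and 1 rose. RAD51C, which belongs to both paralogue complexes, was at 7.96, 7.91 and 8.06 at 16 h, against 8.34, 8.35 and 8.27 in vehicle cells (-0.35, limma adjusted p = 0.00113). RAD54B, a DNA translocase that helps strand invasion, was at 7.29, 7.44 and 7.47 at 16 h, against 8.02, 8.08 and 7.95 in vehicle cells (-0.61, adjusted p = 0.000104). Dimmer signals fell for 2 further paralogues. RAD51B was at 3.20, 3.16 and 3.02 at 16 h, against 3.91, 3.40 and 3.55 in vehicle cells (-0.50, adjusted p = 0.00969), and with the mean of its probe sets the change was -0.17 and did not pass (0.106). RAD51D was at 3.90, 3.54 and 4.08 at 16 h, against 4.23, 4.26 and 4.29 in vehicle cells (-0.42, adjusted p = 0.0129). RAD52, which anneals single strands, was the one that rose. It was at 3.58, 3.46 and 3.46 at 16 h, against 2.72, 3.00 and 3.39 in vehicle cells (0.46, adjusted p = 0.0247), and the highest vehicle array came close to the lowest array at 16 h. RAD52 did not pass without vehicle replicate 1 (adjusted p = 0.102), vehicle replicate 2 (0.0647), 16 h replicate 1 (0.0699) or 16 h replicate 2 (0.0501), and with quantile normalisation (0.0695). RAD54L, the other translocase, changed by -0.25 and XRCC2 by 0.01 relative to vehicle, and neither passed.

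Helicases and nucleases that take joint molecules apart gave 3 falls and 1 rise among 8 genes. RMI1 and RMI2, which bind BLM and TOP3A in the complex that dissolves double Holliday junctions, both fell. RMI2 was at 6.08, 6.17 and 6.20 at 16 h, against 6.88, 6.89 and 6.74 in vehicle cells (-0.68 ± 0.06 SE, limma adjusted p = 8.25e-06). RMI1 was at 8.36, 8.49 and 8.48 at 16 h, against 8.78, 8.95 and 8.84 in vehicle cells (-0.42, adjusted p = 0.000418). The enzymes of that complex did not pass against vehicle: BLM, the helicase, changed by -0.17 (adjusted p = 0.06) and TOP3A, the topoisomerase, by -0.16 (0.234). Both fell under some alternatives. BLM passed with quantile normalisation (0.0193) or median centring (0.0101), and TOP3A with the mean of its probe sets (-0.27, adjusted p = 0.00884). The partners MUS81 and EME1 form a nuclease that cuts branched DNA, and their transcripts moved in opposite directions. MUS81 was at 6.94, 6.95 and 7.10 at 16 h, against 6.84, 6.59 and 6.80 in vehicle cells (0.25, adjusted p = 0.0376). EME1 was at 9.05, 8.92 and 8.73 at 16 h, against 9.09, 9.28 and 9.24 in vehicle cells (-0.31, adjusted p = 0.0138). MUS81 lost its call without vehicle replicate 2 (0.152), 16 h replicate 2 (0.0583) or 16 h replicate 3 (0.131), and with quantile normalisation (0.0644), median centring (0.167), no filter (0.0595) or only the 2 compared groups (0.0699). EME1 lost its call without vehicle replicate 2 (0.0536) or 16 h replicate 3 (0.0561). SLX4, a nuclease scaffold, lay between 1.98 and 2.44 on the 12 arrays, about the level of the unspiked controls, and WRN, a helicase, changed by 0.14 without passing.

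In the Fanconi core complex with UBE2T, 3 of 8 measured genes fell and none rose. Beside UBE2T these were FANCL, the ligase subunit, and FANCE, which contacts the ubiquitin acceptor pair. FANCL was at 8.89, 9.00 and 8.83 at 16 h, against 9.04, 9.12 and 9.30 in vehicle cells (-0.25, limma adjusted p = 0.0207), and it did not pass without vehicle replicate 3 (0.0845) or 16 h replicate 3 (0.0747), or with only the 2 compared groups (0.0671). FANCE was at 3.43, 3.24 and 3.39 at 16 h, against 3.64, 3.55 and 3.77 in vehicle cells (-0.30, adjusted p = 0.0441). FANCE lay closest to the threshold: its adjusted p was 0.0844 and 0.143 without vehicle replicate 1 or 3, 0.147 and 0.0727 without 16 h replicate 2 or 3, and 0.0518, 0.0541 and 0.0526 without 4 h replicate 2, 4 h replicate 3 or 6 h replicate 3. With a trended and robust prior it was 0.0665, with no filter 0.0622, with array weights 0.0539 and with the replicate block 0.0507. FANCI, the measured member of the ubiquitinated pair, was at 9.40, 9.48 and 9.47 at 16 h, against 9.62, 9.79 and 9.72 in vehicle cells (-0.26, adjusted p = 0.00452). FANCF, an adaptor of the core complex, did not pass (-0.24, adjusted p = 0.114), although its arrays at 16 h all lay below vehicle. FANCB, FANCC, FANCG and FANCM changed by -0.07, -0.16, -0.14 and 0.19 with overlapping arrays, and FANCB lay between 2.03 and 2.47 on the 12 arrays.

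The checkpoint kinases were divided. ATR, the kinase that answers to single-stranded DNA, rose: it was at 8.26, 8.45 and 8.30 at 16 h, against 7.73, 8.16 and 7.96 in vehicle cells (0.39 ± 0.10 SE, limma adjusted p = 0.00948). CHEK2, the kinase that ATM activates, fell, at 5.24, 5.25 and 5.49 at 16 h, against 5.71, 5.84 and 5.61 in vehicle cells (-0.39, adjusted p = 0.0213). CHEK2 did not pass without vehicle replicate 2 (0.0776), 16 h replicate 1 (0.0658) or 16 h replicate 2 (0.0723). ATM itself changed by -0.26 (adjusted p = 0.165), with arrays at 16 h all below vehicle, and CHEK1, the target of ATR, by -0.22 with overlapping arrays.

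The 16 h arrays were also set against the earlier treatment times. These comparisons share the 16 h arrays with each other and with the comparison to vehicle. Against 6 h, 2 repair genes rose and 17 fell, where 25.1% of all genes rose and 17.6% fell. Against 4 h, 2 rose and 20 fell, where 24.8% of all genes rose and 16.1% fell. Of the 19 genes lower than vehicle at 16 h, 14 were also lower than both earlier times, and CHEK2, EME1, FANCL, RAD51B and RAD51D were not. MRE11 was the gene higher than all 3 other groups. BLM and CHEK1 fell relative to both earlier times but not relative to vehicle. BLM was at 6.79, 6.83 and 6.98 at 16 h, against 7.16, 7.11 and 7.18 at 6 h and 7.01, 7.07 and 7.09 at 4 h. CHEK1 was at 7.70, 7.83 and 7.60 at 16 h, against 8.08, 7.98 and 7.91 at 6 h and 8.05, 8.04 and 8.07 at 4 h.

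A further 4 genes changed relative to 1 earlier time and not to vehicle. RAD54L was at 2.45, 2.56 and 2.63 at 16 h, against 2.70, 3.06 and 2.96 at 6 h (-0.36, limma adjusted p = 0.0445). TOP3A was at 4.55, 4.32 and 4.13 at 16 h, against 4.71, 4.60 and 4.53 at 4 h (-0.28, adjusted p = 0.0458), with overlapping arrays. FANCC was at 6.94, 6.98 and 6.93 at 16 h, against 7.23, 7.31 and 7.24 at 4 h (-0.31, adjusted p = 0.0207). XRCC2, a paralogue in the larger complex, was at 4.81, 4.57 and 4.63 at 16 h, against 4.41, 4.30 and 4.16 at 4 h (0.38, adjusted p = 0.0142). Its vehicle arrays were at 4.63, 4.52 and 4.84 and its 6 h arrays at 4.34, 4.61 and 4.56, with 1 array at 6 h inside the range of the 4 h arrays. XRCC2 at 4 h did not pass against vehicle (adjusted p = 0.206), nor did 6 h against 4 h (0.561). The number of repair genes that rose was 1 against 4 h without 4 h replicate 3 or 16 h replicate 1 and 4 without vehicle replicate 1, and 1 against 6 h without 6 h replicate 1 or 16 h replicate 2. Called in none of the 6 comparisons were 9 genes: ATM, FANCB, FANCF, FANCG, FANCM, PALB2, RAD50, SLX4 and WRN.

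Probe sets of the same gene lie at different places along its transcripts, and 64 of the 86 passed the filter. In a fit over 22708 probe sets, of which 23.3% rose and 18% fell at 16 h, 7 of the 64 rose and 29 fell. Of 26 probe sets other than the brightest, in 18 genes, 19 had the sign of the brightest one and 7 the opposite sign, and 3 rose and 10 fell. Both other probe sets of FANCI fell more than the brightest, by 0.95 and 0.45 on the log2 scale. The other tested probe set of MSH6 fell by 0.86, that of EME1 by 0.64 and that of BRCA1 by 0.53. ATR rose on both of its tested probe sets, by 0.39 and 0.43.

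NBN was the gene whose probe sets were called in opposite directions. Its brightest changed by -0.22, while another was at 7.12 on average at 16 h, against 6.53 in vehicle cells (0.60 ± 0.10 SE, limma adjusted p = 0.000451). A further one, with a name ending in _x_at, averaged 5.85 at 16 h, against 7.11 in vehicle cells, a 2.39-fold fall (-1.26 ± 0.14 SE, adjusted p = 3.42e-05). The fourth changed by -0.26 without passing (0.112). No single direction therefore describes NBN. Probe sets with names ending in _s_at or _x_at can bind several transcripts, and which transcripts these bound was not tested. RAD51C was also split: its second probe set changed by 0.01 (adjusted p = 0.953) where the brightest fell. In 5 cases a second probe set was called where the brightest was not, with falls for RAD50 (-0.63), TOP3A (-0.34) and CHEK1 (-0.26 and -0.38) and a rise for FANCC (0.30).

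**Figure D3:**
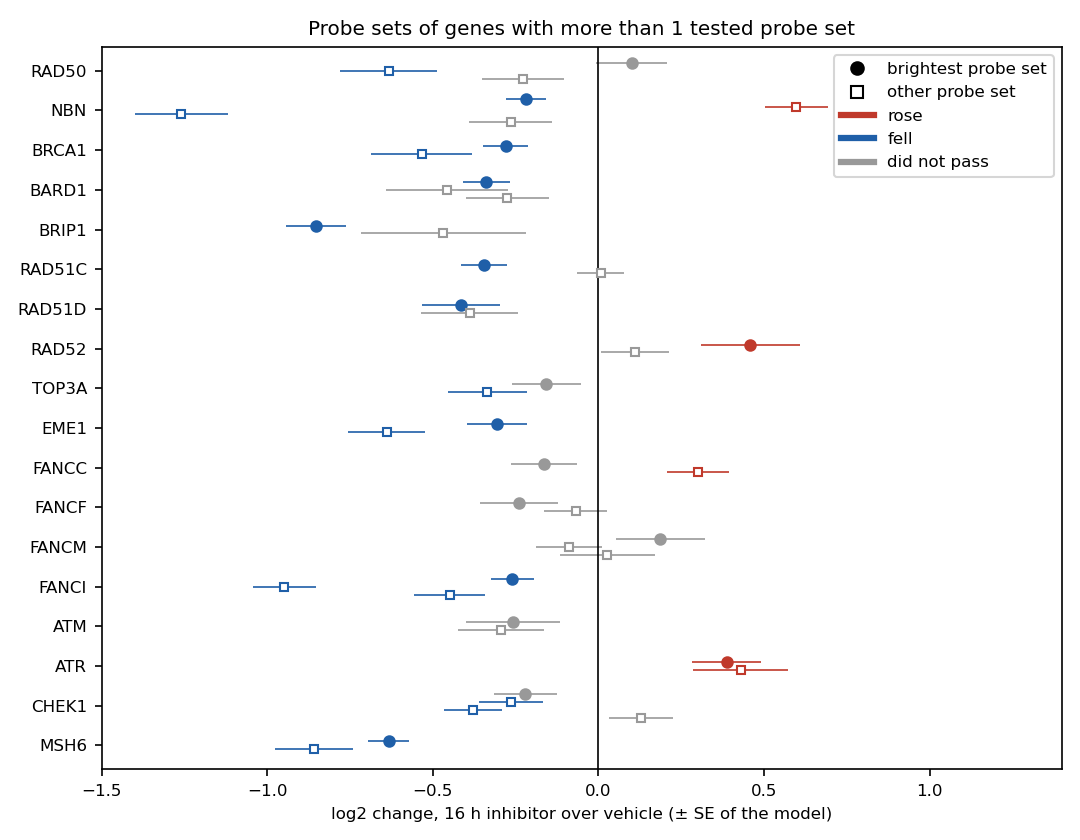
Log2 change at 16 h over vehicle for each tested probe set of the 18 genes that have more than 1, with bars of 1 SE from the model; filled circles are the brightest probe set of a gene and open squares the others. NBN spans from -1.26 to 0.60, while all 3 probe sets of FANCI lie below 0.

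Other repair lists, also chosen with earlier results of these data known, were read from the same fit. In that fit 26% of all tested genes rose and 16.8% fell at 16 h, and the counts below stand beside those shares. Among 45 further recombination, crosslink and mismatch genes 10 rose and 11 fell, with a median log2 change of 0.04, and with median centring 6 rose and 18 fell. The rises there numbered 6 with quantile normalisation or without 16 h replicate 2, and 5 without vehicle replicate 3 or 16 h replicate 3. The largest changes there were EME2, a partner of MUS81 (0.94), REV3L, the catalytic subunit of a translesion polymerase (0.75), TIMELESS, a fork protection protein (-0.58), and ABRAXAS1, a scaffold of a BRCA1 complex (0.55). Of 9 end joining genes, the ligase LIG4 rose (0.48) and PAXX fell (-0.40). Base excision repair had 3 rises and 4 falls among 16 genes, led by NEIL3 (-0.61), FEN1 (-0.58), POLB (0.56) and UNG (-0.51). Nucleotide excision repair had 5 rises and 2 falls among 16, including the damage sensors XPC (0.61) and DDB2 (0.53), with UVSSA (0.36) and RAD23B (-0.31). The rises there numbered 3 without vehicle replicate 2 or 16 h replicate 2, and with either scaling. In none of these lists did a gene pass at 4 h or 6 h.

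Genes of S phase moved at the same time as the repair genes. At 16 h, 28 of 37 genes listed for S phase and replication fell and 2 rose, beside 16.8% and 26% of all tested genes. The median log2 change of the 37 was -0.42, and none of them passed at 4 h or 6 h. With 1 array left out 25 to 29 fell and 0 to 2 rose, with 0 rises without vehicle replicate 2, 16 h replicate 2 or 16 h replicate 3. Of 17 regulators of the RB and E2F system 8 fell and 2 rose (median -0.27). E2F1, an activator of S phase genes that is on both lists, averaged 4.56 at 16 h, against 6.19 in vehicle cells, a 3.09-fold fall (limma adjusted p = 1.03e-08). MCM7 (-1.06), UHRF1 (-0.98), GINS2 (-0.95), E2F8 (-0.85) and E2F2 (-0.78) fell as well, and E2F6, a repressor, rose (0.67). The part of cell cycle position in the values of the repair genes was not tested.

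**Figure D4:**
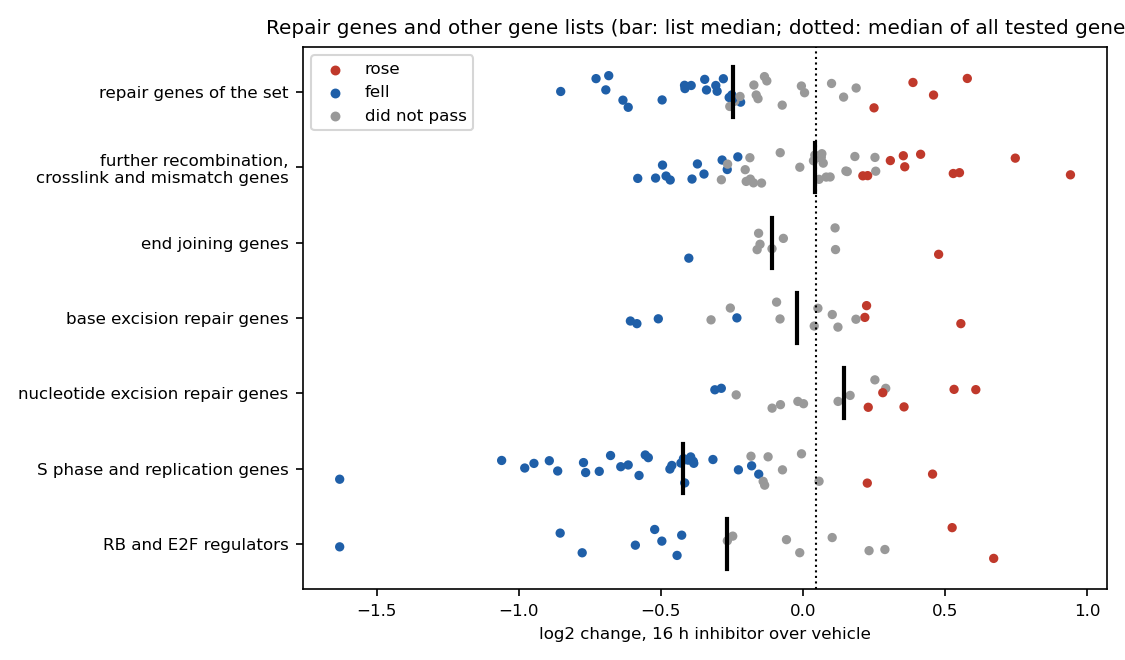
Log2 change at 16 h over vehicle for each tested gene (points) of the repair genes of the set, the other repair lists, the S phase and replication list and the RB and E2F regulators, with list medians as bars and the median of all tested genes as a dotted line. The medians are -0.25 for the 38 repair genes, 0.14 for nucleotide excision repair and -0.42 for S phase and replication.

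Some RNA controls on the arrays differed between the groups as well. The 18S signal averaged 9.62 ± 0.29 in vehicle cells, 8.98 ± 0.14 at 4 h, 8.64 ± 0.19 at 6 h and 11.06 ± 0.10 at 16 h (SD, n = 3 each). It thus lay below vehicle at 4 h and 6 h and above it at 16 h, without overlap (two-sided exact permutation p = 0.1 for each time, the smallest that 3 against 3 arrays allow). The difference between the 3' and 5' ACTB probe sets averaged 2.80 ± 0.07 in vehicle cells, 2.68 ± 0.09 at 4 h, 3.02 ± 0.34 at 6 h and 4.09 ± 0.09 at 16 h (SD, n = 3 each; exact permutation p against vehicle = 0.2, 0.5 and 0.1 in order of time). The same difference for GAPDH lay between -0.51 and -0.43 in the 4 group means (exact permutation p = 0.2, 0.2 and 0.3). Their part in the results was not tested. All 8 prostate epithelial markers found lay above the unspiked controls on all 12 arrays, with a summed level of 12.58 to 12.70 at 16 h and 12.50 to 12.54 in vehicle cells. That sum is carried mostly by the brightest of them, and single markers moved apart from it: KLK2, a prostate kallikrein, fell by 1.30 on the log2 scale (limma adjusted p = 5.02e-05), HOXB13, a prostate homeodomain factor, fell by 1.06 (2.78e-06), KRT18, a keratin of luminal cells, rose by 0.20 (0.0205), and the other 5 did not pass. The 6 fibroblast markers summed to 6.63 to 7.05 at 16 h and 5.61 to 5.91 in vehicle cells: COL1A1 (2.05) and LUM (1.25) rose, DCN (-0.58) and COL3A1 (-0.37) fell, and COL1A2 and PDGFRB were above the controls on 0 arrays. The 4 leukocyte markers found summed to 3.69 to 3.87 at 16 h and 3.86 to 3.95 in vehicle cells, and the 5 endothelial markers to 4.10 to 4.21 and 4.06 to 4.27. No leukocyte marker passed the filter, none of 2 tested endothelial markers was called, and CD14, CDH5, VWF and KDR were above the controls on 0 arrays.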

How the data were processed

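Expression was measured on 12 arrays. Deposited by the authors are log2 signals of 54675 probe sets. GCRMA, which combines a background correction based on probe sequence with quantile normalisation and summarisation, is named without a version in the submitters' processing notes. Per the labels' protocols, RNA was amplified from the 3' end. Deposited log2 array medians lay between 2.10 and 2.15, so a shift common to most genes would be hidden. The number of arrays limits the precision.

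Probe sets were named by the platform annotation, updated through Entrez identifiers against a RefSeq table. Setting aside 62 controls, 41091 had 1 symbol, 1801 had several and 11721 were unnamed. The 12 arrays entered 1 limma 3.58.1 model (R 4.3.3, lmFit and eBayes, 4 group means, 8 residual and 3.69 prior degrees of freedom) over 12635 genes, with 6 two-sided comparisons. The fit was tested on simulated data with independent noise and few changed genes. That test does not cover changes as widespread as those at 16 h, or shifts in scaling or RNA quality between arrays. Promoter words were searched on both strands of RefSeq windows of 300 bases.

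The genes, the lists and the naming rule were chosen with earlier results of these data known. Every repair gene is named, with values on the arrays compared where it passed in any comparison, and up to 4 called genes of each other list with the largest changes. MSH3, PMS1 and MLH3 are named besides, as mismatch genes outside the set. Same-numbered replicates were checked for pairing across groups after group means were removed. Correlations above 0.1 were found in 5 of 18 same-number pairs and in 4 of 36 different-number pairs. The main model held no replicate block, as no label says what a number shares. Alternatives covered normalisation, filter, probe set choice, variance prior, array weights, the groups in the fit, a replicate block and leaving out each array.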

Additional observations from a re-analysis of the deposited data

Results flagged for a closer look

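Effects at 2 treatment times under the same contrast with vehicle differed in 41 cases, by limma's test of 16 h against the earlier time (adjusted p below 0.05). Each of the 38 repair genes was tested against both earlier times. Many other genes differed too: of all tested genes, 25.1% rose and 17.6% fell against 6 h. Against 4 h, 24.8% of all tested genes rose and 16.1% fell. The 2 sets of comparisons share the 16 h arrays. No explanation was tested.

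Relative to 6 h, the log2 effect at 16 h was larger by 0.81 for MRE11 and 0.33 for ATR. It was lower for BRIP1 (-0.96), UBE2T (-0.82), RMI2 (-0.69), XRCC3 (-0.67), MSH6 (-0.61), RAD54B (-0.59), RMI1 (-0.47), FANCE (-0.44), RAD51C (-0.42) and BARD1 (-0.38). Smaller differences from 6 h were found for EXO1 (-0.36), RAD54L (-0.36), BRCA1 (-0.36), BLM (-0.29), CHEK1 (-0.28), FANCI (-0.27) and NBN (-0.19).

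Relative to 4 h, the effect at 16 h was larger by 0.70 for MRE11 and 0.38 for XRCC2. It was lower for BRIP1 (-1.12), UBE2T (-0.70), RMI2 (-0.67), MSH6 (-0.61), XRCC3 (-0.60), RAD54B (-0.53), BARD1 (-0.52) and RMI1 (-0.45). Smaller differences from 4 h were found for BRCA1 (-0.38), RAD51B (-0.38), EXO1 (-0.35), CHEK1 (-0.35), FANCE (-0.32), FANCC (-0.31), FANCL (-0.29), NBN (-0.29), TOP3A (-0.28), FANCI (-0.25), RAD51C (-0.21) and BLM (-0.19).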

How the results depend on the processing

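Of 23 repair genes called at 16 h against vehicle, 14 kept their call under each of the 22 alternatives in which they were tested: NBN, BRCA1, BARD1, BRIP1, RAD51C, RAD51D, XRCC3, RAD54B, RMI1, RMI2, UBE2T, FANCI, ATR and MSH6. NBN, RAD51D and XRCC3 were tested in 21 of them. UBE2T, XRCC3, RAD54B, RMI1 and RMI2 have 1 probe set each, so the choice of probe set could not alter their log2 changes. BRCA1 and RAD51C have only probe sets with names ending in _s_at or _x_at, so avoiding such names left theirs as they were. The fall of NBN does not extend to each of its probe sets, as another one rose by 0.60 (limma adjusted p = 0.000451). Some genes not called in the main fit fell under alternatives. BLM and CHEK1 did so under 6 each, ATM under 4, and FANCF, RAD54L and TOP3A under 2 each. FANCC fell without vehicle replicate 3 (limma adjusted p = 0.0225). Quantile normalisation and median centring both gave falls for ATM (0.0201 and 0.0258), BLM (0.0193 and 0.0101) and FANCF (0.0347 and 0.0134). RAD50 and FANCC, not called against vehicle, changed sign with the choice of probe set. With the mean of probe sets, RAD50 changed by -0.25 against vehicle, -0.25 against 6 h and -0.22 against 4 h. Its change was -0.63, -0.56 and -0.58 in the same order when probe sets with names ending in _s_at or _x_at were avoided. FANCC was then higher by 0.30, 0.28 and 0.10 (limma adjusted p = 0.0193, 0.0295 and 0.428). The FANCC probe set read there averaged 2.16, near the unspiked controls. Leaving out 1 array at a time, 16 to 20 fell and 2 to 4 rose. The 2 came without vehicle replicate 2 or 16 h replicate 2. The rises numbered 2 with quantile normalisation and 2 with the filter at the 75th percentile. A replicate block gave 18 falls and 4 rises. Correlations of same-number arrays across groups ran from -0.00 to 0.24, against -0.19 to 0.13 for different numbers. For 6 of 12 arrays the own number gave the closest array in each other group. Some pairing by number is therefore possible, and what a number shares is not stated in the labels. No repair gene was called at 4 h or 6 h against vehicle under any of these alternatives.

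Against 6 h, 26 repair genes fell with median centring, which moved the split over all genes toward falls as well (3255 falls and 2374 rises with it, 2222 falls and 3168 rises as deposited). There, 1 rose with it or with the stricter filter, and 1 to 3 rose with an array left out. Against 4 h, 1 rose with quantile normalisation, median centring or the stricter filter, 4 with a trended robust prior or with only the compared groups, and 1 to 4 with an array left out. Repair probe sets that rose at 16 h numbered 3 with the stricter filter and 3 to 7 with an array left out (4 without vehicle replicate 1 or 2, 3 without 16 h replicate 2 or 3).

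Counts over all genes moved most where few were called. Against vehicle at 4 h they were 90 with the stricter filter, 136 with the trended prior, 89 with array weights and 25 to 70 with an array left out. At 6 h they were 2 with median centring, 0 without a filter, 79 with the mean of probe sets, 63 with the trended prior, 10 with array weights, 0 with only the compared groups and 0 to 18 with an array left out. Between 6 h and 4 h they were 26 with median centring, 0 with the mean of probe sets, 59 with the trended prior, 33 with array weights, 0 with only the compared groups and 2 to 14 with an array left out. The cause was not tested. Signals near the unspiked controls (FANCB, SLX4 and the dimmer FANCC probe set) limit what can be seen there.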
